A study of Mus musculus with 3 samples.

Results

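The genes described are 32 members of the p53 pathway, taken by symbol from the 27999 gene rows measured in each of 3 mouse brain tumours. They comprise Trp53, which encodes p53, its inhibitors Mdm2 and Mdm4, and 29 genes known as targets of p53, and all 32 symbols were found once in the tables. The tumours were gliomas grown in mice heterozygous for the mTmG reporter at Rosa26, after electroporation of the brain on postnatal day 1 or 2 with MADR constructs, which place a transgene at a chosen locus. Every tumour carried H3f3a K27M, Pdgfra D842V and Trp53 R270H, so no tumour without these alleles was compared. The mice were 150, 106 and 149 days old (tumours 1, 2 and 4, 1 animal each), and GFP-positive tumour cells were sorted and profiled with a droplet-based 3′ RNA-sequencing kit. The sort keeps cells that carry the green reporter or another source of green signal.

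The protein p53 is a transcription factor that is kept low by the ubiquitin ligase Mdm2 and held inactive by the related Mdm4. When DNA is damaged or a cell is otherwise stressed, p53 accumulates and raises transcription of genes that stop the cell cycle, trigger apoptosis or repair DNA, and it raises Mdm2, which closes a feedback loop. The R270H change is the mouse counterpart of a hotspot change in the DNA-binding domain of human p53, and such proteins bind p53 sites poorly. Because a 3′ kit reads the end of a transcript, the counts of Trp53 do not separate the mutant allele from the wild-type one. The sources used here do not say whether transcripts of an inserted Trp53 construct are counted in the Trp53 row.

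From 3386, 1632 and 4624 barcodes (47120617, 15231673 and 53551127 UMIs, or molecule counts), 3361, 1548 and 4377 cells of tumours 1, 2 and 4 were kept. Cells were clustered within each tumour without the 32 genes and without cell-cycle genes, and clusters were named from marker lists. Progenitor-like clusters carried markers of oligodendrocyte progenitor cells (OPCs), which summed to 3154, 5130 and 3616 CPM in the non-cycling cells of tumours 1, 2 and 4 (CPM is the count scaled to the total UMIs of the class). Oligodendrocyte markers in the same cells summed to 686, 5398 and 2650 CPM, above the OPC markers in tumour 2, against 80850 and 19430 CPM in the oligodendrocyte-like cells of tumours 2 and 4. Of progenitor-like cells, 633, 71 and 1950 were non-cycling, and 826 and 855 were cycling in tumours 1 and 4. Oligodendrocyte-like cells were found in tumours 2 (285) and 4 (156), and myeloid-like cells in all 3 tumours (161, 394 and 77). Tumour 2 stood apart: its progenitor-like cells had a median of 5600 UMIs against 10761 and 8749, and immediate early genes summed to 12780 CPM against 3297 and 5453. Libraries shared between 6 and 20 barcodes in pairs. Each tumour is 1 library, so differences between tumours have no test, and their 95% Poisson intervals cover counting error only.

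Together the 32 genes made up 1433 CPM of the non-cycling progenitor-like cells of tumour 1, 1959 of tumour 2 and 2325 of tumour 4, a mean of 1906 ± 448 CPM (SD, n = 3). Trp53 itself (chr11:69580359-69591873, build GRCm38) was at 111 CPM in tumour 1 (95% interval 103 to 118), 71.0 in tumour 2 (48.3 to 101) and 83.2 in tumour 4 (79.4 to 87.2). Tumour 1 lay above the others, and the intervals of tumours 2 and 4 overlapped. Mdm2 (chr10:117688875-117710758), the ligase that marks p53 for degradation, was at 34.4, 50.4 and 41.3 CPM in tumours 1, 2 and 4. Mdm4, which masks the activation domain of p53, was at 33.7, 36.7 and 45.7 CPM. For both inhibitors the interval of tumour 2 (22 and 16 UMIs) overlapped both others. Across the tumours Trp53, Mdm2 and Mdm4 varied by 1.56, 1.47 and 1.35 times from lowest to highest.

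Genes of cell-cycle arrest and growth control varied more between tumours. Cdkn1a (chr17:29090976-29100727) encodes p21, the inhibitor of cyclin-dependent kinases that is the classical arrest target of p53. Tumour 1 had 101 CPM of it (93.9 to 108), tumour 2 had 174 (137 to 218) and tumour 4 had 369 (361 to 377), with no overlap between intervals and a mean of 215 ± 139 CPM (SD, n = 3). Btg2, an antiproliferative gene that is also induced early after many stimuli, was at 150, 479 and 330 CPM. Gadd45a, a stress sensor of the arrest and repair response, was at 18.6, 75.6 and 57.3 CPM. Tumour 2 was highest for both, although its Gadd45a interval overlapped that of tumour 4. It was also highest for immediate early genes, whose part in the levels was not tested. Ccng1, a cyclin G gene that acts in p53 feedback, was at 43.3, 39.0 and 63.4 CPM. Plk2, a polo-like kinase, was at 38.4, 96.2 and 47.6 CPM. Gdf15, a secreted stress cytokine, was at 1.86 CPM in tumour 1 and 6.29 in tumour 4, and had no UMI in tumour 2, where 3 counts would be 6.87 CPM. Gtse1, a microtubule-associated gene expressed in the G2 and S phases, had 11, 0 and 31 UMIs.

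Among 15 apoptosis genes Bax, the pore-forming effector of mitochondrial apoptosis, was at 319, 387 and 527 CPM in tumours 1, 2 and 4. Tumour 4 lay above both others, and the intervals of tumours 1 (306 to 332) and 2 (331 to 450) met. Phlda3, a repressor of Akt signalling, was at 140, 110 and 276 CPM, highest in tumour 4. Fas, a death receptor, was at 6.37, 4.58 and 17.6 CPM, and Trp53inp1, a stress-induced nuclear protein, at 6.24, 25.2 and 12.1 CPM. Aen, an apoptosis-enhancing nuclease, showed another order, at 77.2, 18.3 (8 UMIs) and 51.0 CPM. Bbc3, which encodes the BH3-only protein PUMA, was at 59.6, 36.7 and 71.5 CPM. Zmat3, an RNA-binding regulator of splicing, was at 59.1, 80.2 and 68.5 CPM. The other death genes Perp and Tnfrsf10b were hardly counted: Perp had 1, 1 and 4 UMIs, and Tnfrsf10b, a TRAIL receptor, had 6, 1 and 22. Cyfip2, Ei24, Eda2r, Apaf1, Pidd1 and Pmaip1 completed the group, with means between 3.89 CPM (Apaf1) and 78.2 CPM (Cyfip2).

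The 4 repair genes and 3 metabolic genes were counted at means between 4.31 and 16.5 CPM. Of the repair genes, Xpc and Ddb2 recognise DNA lesions, Polk is a translesion polymerase and Rrm2b makes nucleotides for repair. Between tumours 1 and 4, Xpc went from 15.1 to 10.4 CPM and Polk from 7.70 to 11.4, both with intervals apart. Fdxr, a mitochondrial ferredoxin reductase, was at 11.8, 27.5 and 10.3 CPM, and Sesn1, a sestrin that restrains growth signalling, at 7.30, 18.3 and 5.25. Dcxr, a xylulose reductase, was at 10.5, 16.0 and 10.1 CPM, with all 3 intervals overlapping.

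Tumour 4 exceeded tumour 1 with intervals apart for 16 of the 32 genes, against 20.9% of the 18234 genes counted in either. The reverse held for 4 of the 32, against 14.4% of all genes, and these 4 are Trp53, Aen, Xpc and Pmaip1. Cdkn1a, Gadd45a, Fas and Gdf15 were among the 16. The 18234 genes include those with very few UMIs, whose wide intervals can hardly lie apart. The shares were not compared at equal counts. Oligodendrocyte markers in these cells were also higher in tumour 4 than in tumour 1 (2650 against 686 CPM), and their part in the differences between tumours was not tested.

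**Figure D1:**
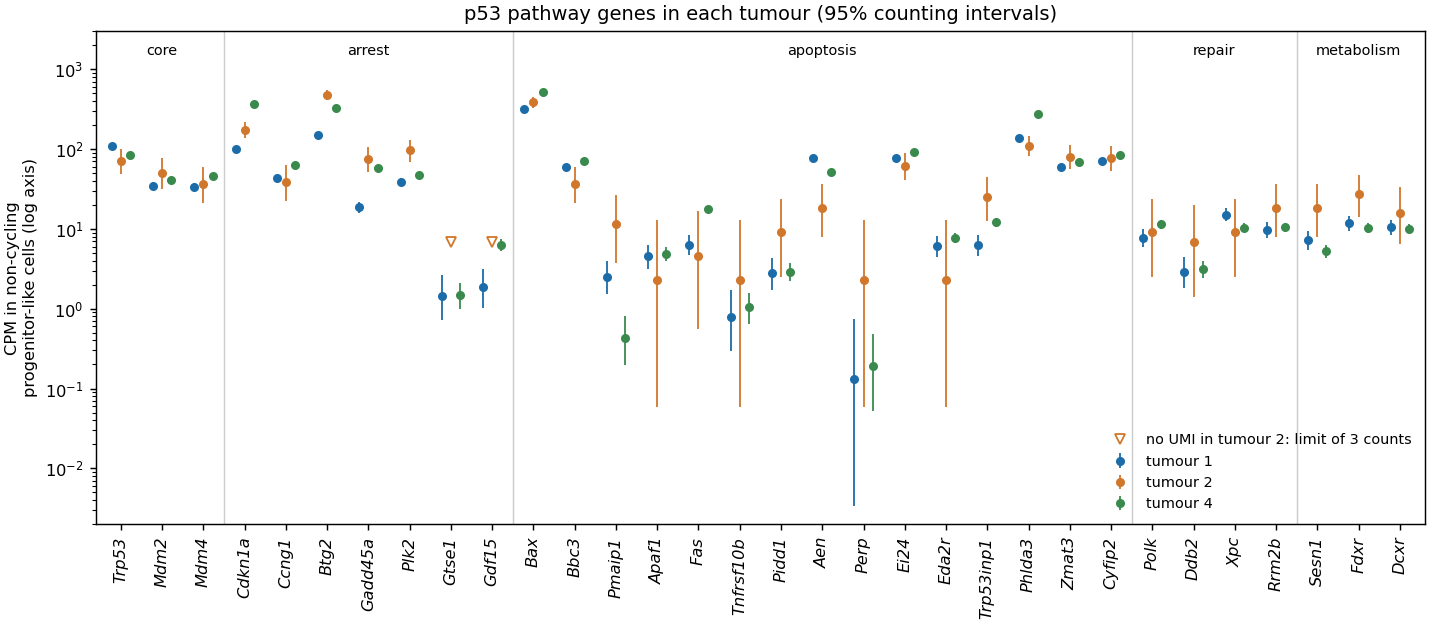
Level of each of the 32 genes (CPM, log axis) in non-cycling progenitor-like cells of tumours 1, 2 and 4, with 95% Poisson intervals and grouped by role; open triangles mark genes with no UMI, at 3 counts. Cdkn1a rises from 101 to 369 CPM between tumours 1 and 4, while Mdm2 and Mdm4 stay between 33.7 and 50.4 CPM.

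Cell classes were compared with edgeR's quasi-likelihood test on counts summed per tumour and class, with tumour as a block and Benjamini-Hochberg adjustment over 12752 genes, of which 30 were of the 32. Perp and Tnfrsf10b fell under the filter on low counts. A gene is called at an adjusted p under 0.05.

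In myeloid-like cells, which carried markers of microglia and macrophages, 5 of the 30 tested genes rose against non-cycling progenitor-like cells and none fell. All genes tested were called higher in 13.0% and lower in 2.67% of cases, and the median log2 fold change was -0.14 over the 30 and -0.04 over all genes. DESeq2 called 6 of the 30 higher and 3 lower, against 14.9% and 6.19% of all genes. By both tools the count of genes called higher lay near the share of all genes, so it is not particular to the 32. The genes called higher by edgeR were Pmaip1, Dcxr, Cdkn1a, Apaf1 and Btg2.

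Pmaip1 encodes NOXA, a BH3-only protein that neutralises Mcl1. It was at 36.5, 146 and 26.2 CPM in the myeloid-like cells of tumours 1, 2 and 4 and at 2.52, 11.5 and 0.426 CPM in their progenitor-like cells. The lowest myeloid-like level lay above the highest progenitor-like level, and the log2 fold change was 4.86 ± 0.66 (SE; edgeR adjusted p = 0.00109). Dcxr was at 24.9, 40.2 and 49.0 CPM against 10.5, 16.0 and 10.1, again without overlap (log2 fold change 2.11 ± 0.36, edgeR adjusted p = 0.00421). Cdkn1a was at 522, 646 and 592 CPM in myeloid-like cells, a narrower range than the 101 to 369 CPM of progenitor-like cells. Its log2 fold change was 2.01 ± 0.48 (edgeR adjusted p = 0.0229), and the fold was 5.17 in tumour 1, 3.71 in tumour 2 and 1.60 in tumour 4.

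Apaf1, the scaffold of the apoptosome, was at 10.8, 14.2 and 7.97 CPM against 4.52, 2.29 and 4.87 (log2 fold change 1.55 ± 0.39, edgeR adjusted p = 0.0280). Btg2 was at 379, 637 and 329 CPM against 150, 479 and 330, with a ratio of 0.997 in tumour 4 (log2 fold change 1.13 ± 0.28, edgeR adjusted p = 0.0284). Of the next genes by edgeR, none of them called, 3 had a lower fitted value: Phlda3 (log2 fold change -1.31 ± 0.39, edgeR adjusted p = 0.0527), Cyfip2 (-1.11 ± 0.34, adjusted p = 0.0576) and Zmat3 (-1.19 ± 0.38, adjusted p = 0.0711). Gdf15, which lay between Cyfip2 and Zmat3 by p, had a higher one (2.78 ± 0.85, edgeR adjusted p = 0.0599), and DESeq2 called it higher. It was at 9.40, 31.5 and 45.5 CPM in myeloid-like cells against 1.86 and 6.29 in the progenitor-like cells of tumours 1 and 4 and no UMI in those of tumour 2. Trp53 was at 94.0, 21.8 and 47.8 CPM in myeloid-like cells, each below the progenitor-like cells of its tumour, and was not called (log2 fold change -0.37 ± 0.22, edgeR adjusted p = 0.278). Mdm2 was at 41.9, 56.1 and 67.2 CPM and was not called (0.80 ± 0.45, edgeR adjusted p = 0.261).

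The myeloid-like sums also held OPC markers, all 10 of 10 of them, at 1645, 137 and 1626 CPM in tumours 1, 2 and 4 against 3154, 5130 and 3616 CPM in progenitor-like cells. In progenitor-like cells all 10 microglial markers were counted, at 122, 575 and 35.2 CPM against 8127, 23150 and 13940 in myeloid-like cells. Their part in the differences was not tested. Without tumour 1, 2 genes were called higher and 0 lower, against 7.17% and 0.483% of all genes in that fit. Without tumour 2, 8 were called higher and 4 lower, against 14.6% and 7.01%. Without the tumour block 2 were called higher and 0 lower, against 8.25% and 0.267%. Of a list of 25 p53 regulators, 2 of 22 tested rose, the checkpoint kinase Chek2 (log2 fold change 2.14 ± 0.48) and the p53-binding Ppp1r13b (1.63 ± 0.45), both called by edgeR. Of 28 further p53 targets, 4 of 27 tested rose and 2 fell, led by Plk3 (3.43 ± 0.44) and Thbs1 (3.05 ± 0.52). In the same fit 13.0% of all genes were called higher and 2.67% lower.

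In cycling progenitor-like cells no gene of the 30 was called against non-cycling ones by edgeR or DESeq2, while 2.72% of all genes were called higher and 0.0157% lower. Of the 30, 1 had an unadjusted p under 0.05, Gtse1, against 8.12% of all genes. It was at 19.7 and 15.9 CPM in the cycling cells of tumours 1 and 4 and at 1.46 and 1.47 CPM in the non-cycling cells, a log2 fold change of 3.58 ± 0.81 (edgeR adjusted p = 0.0637). Its adjusted p lay between 3.31e-07 and 0.905 under the alternatives. Cdkn1a did not share a direction between the tumours: it was 1.89 times higher in cycling cells of tumour 1 (191 against 101 CPM, interval 1.74 to 2.05) and 0.976 times in tumour 4 (360 against 369 CPM, 0.940 to 1.01). Trp53 was 1.27 and 1.43 times higher in cycling cells, at 141 and 119 CPM, and was not called (0.37 ± 0.24, edgeR adjusted p = 0.878). Mdm2 was at 42.8 and 47.0 CPM, 1.25 and 1.14 times its level in non-cycling cells.

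The classes were fitted together, and the spread was shared with tumour 2, which had no cycling progenitor-like sum. When only the cycling and non-cycling sums were fitted, 9 genes were called, 5 higher and 4 lower, against 11.5% and 8.37% of all genes in that fit. Gtse1, Pidd1, Gdf15, Mdm4 and Trp53 were higher, and Btg2, Trp53inp1, Bbc3 and Dcxr lower. Among regulators 2 of 22 rose with cycling, Chek2 (2.78 ± 0.42) and Chek1 (2.07 ± 0.31), and of further targets 1 of 27, the cytoskeleton-associated Ckap2 (3.29 ± 0.60).

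In oligodendrocyte-like cells, compared in tumours 2 and 4, no gene of the 30 was called by edgeR, while 2.82% of all genes were called higher and 0.533% lower. An unadjusted p under 0.05 was found for 4 of the 30 and for 20.5% of all genes, so the members' share lay below that of all genes. OPC markers in oligodendrocyte-like cells summed to 1353 and 2826 CPM in tumours 2 and 4, against 5130 and 3616 in progenitor-like cells, and their part in the differences was not tested. DESeq2 called Gtse1 higher and Btg2 lower, against 5.58% and 2.44% of all genes. Of the 79 Gtse1 UMIs of tumour 2, 77 came from 1 cluster of 17 cells described next, and tumour 4 had 5 UMIs in all. Without that cluster its edgeR log2 fold change went from 2.80 ± 1.09 to 1.16 ± 0.72 (edgeR adjusted p = 0.381). Btg2 was at 173 and 137 CPM in oligodendrocyte-like cells against 479 and 330 in progenitor-like cells, lower in both tumours without overlap (log2 fold change -1.25 ± 0.33, edgeR adjusted p = 0.0863). Phlda3 was higher in both, at 374 and 344 CPM against 110 and 276 (1.29 ± 0.44, edgeR adjusted p = 0.154). Mdm2 was at 318 CPM against 50.4 in tumour 2 and at 51.2 against 41.3 in tumour 4 (1.52 ± 0.54, edgeR adjusted p = 0.168). The value in tumour 2 rests on the same 17 cells, in which Mdm2 reached 3589 CPM and Cdkn1a 9189 CPM against 81.2 and 318 CPM in the other cells of that tumour. Without that cluster the log2 fold change of Mdm2 was 0.41 ± 0.27 (edgeR adjusted p = 0.407, between 0.00506 and 0.685 over all alternatives).

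That cluster and 1 of 34 cells in tumour 4 stood out for several of the genes. In tumour 4 Mdm2 was at 360 CPM in the cluster against 43.9 in the other cells, Cdkn1a at 1048 against 349, Gdf15 at 180 against 8.29 and Ccng1 at 157 against 53.6. Of these cells 76.5% in tumour 2 and 67.6% in tumour 4 were cycling. In the cluster of tumour 4, Btg2 (134 against 279 CPM) and Gadd45a (52.2 against 59.6) were lower, and Pmaip1, Tnfrsf10b and Perp had no UMI. The clusters were singled out, after their values were seen, by Mdm2 or Gdf15 among their 10 leading genes. High levels of these genes follow from that rule, and all levels are a description.

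**Figure D2:**
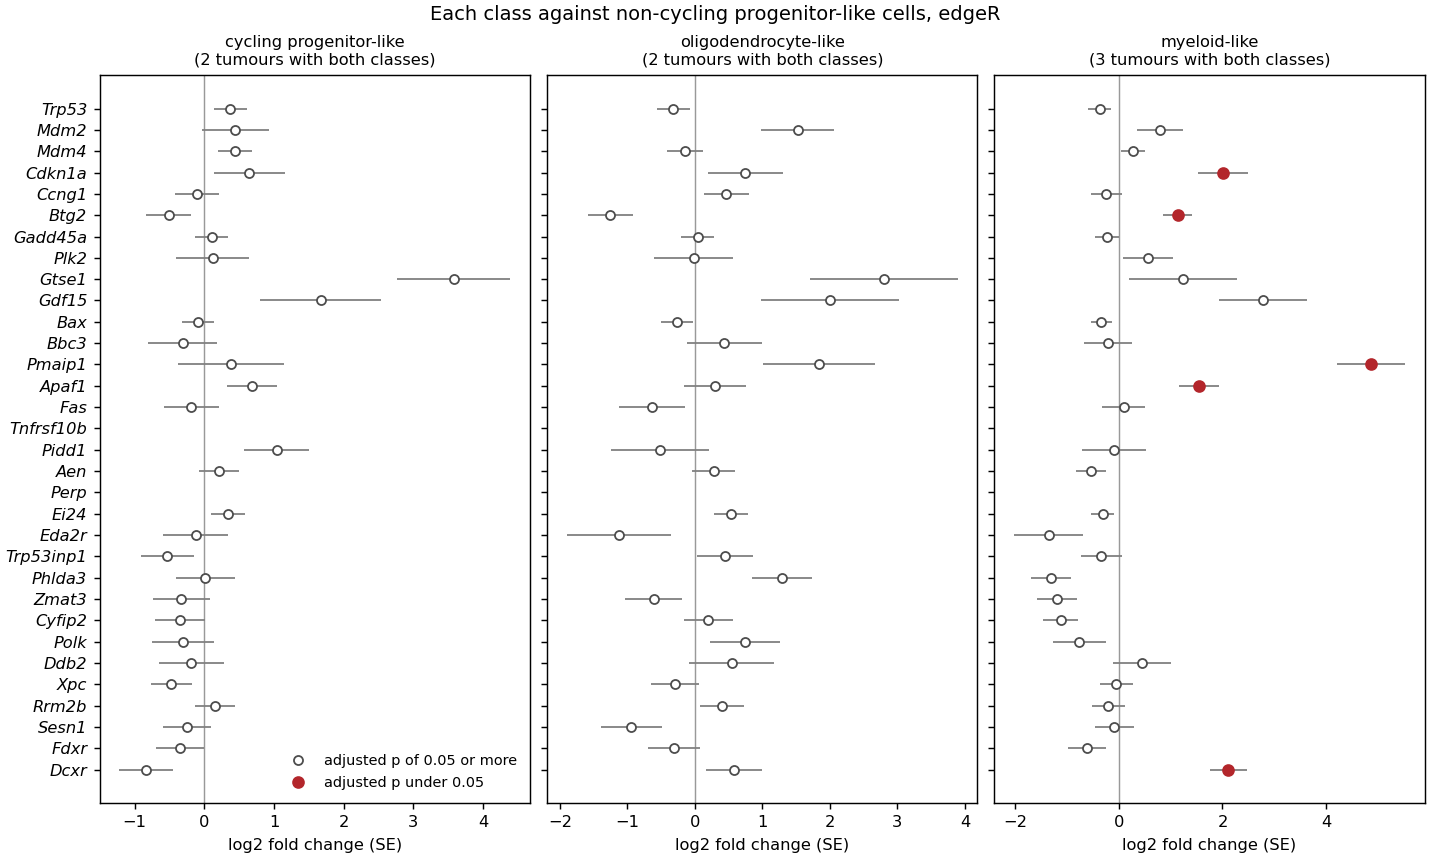
Log2 fold change with its standard error for 30 of the 32 genes in cycling progenitor-like, oligodendrocyte-like and myeloid-like cells, each against non-cycling progenitor-like cells; filled points have an edgeR adjusted p under 0.05. The 5 filled points are all in the myeloid-like panel, and Gtse1 lies at 3.58 in the cycling panel.

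To see which targets moved together from cell to cell, non-cycling progenitor-like cells of each tumour were split by whether they held a UMI of Cdkn1a after each cell had been thinned to 2000 UMIs. The cells with Cdkn1a numbered 92, 16 and 798 in tumours 1, 2 and 4, and those without it 541, 55 and 1152. Of 28 other genes of the 32 tested, 7 rose in the cells with Cdkn1a and none fell by edgeR, against 0.13% higher and 0.104% lower of 11519 genes. They were Ccng1, Zmat3, Aen, Dcxr, Bbc3, Bax and Phlda3, which span feedback, splicing, nuclease, metabolic and apoptotic roles. The median log2 fold change was 0.28 over the 28 and -0.01 over all genes tested. Genes with few UMIs can hardly be called, and the shares in this split and the later ones were not compared at equal counts.

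Ccng1 was at 75.6 CPM in cells with Cdkn1a and 37.7 in cells without it in tumour 1, at 45.3 and 36.8 in tumour 2, and at 88.7 and 43.7 in tumour 4. The folds were 2.01 (1.55 to 2.58), 1.23 (0.340 to 3.76) and 2.03 (1.81 to 2.27), so that the gene was higher in all 3 tumours and the interval of tumour 2 spanned 1. Its log2 fold change was 0.95 ± 0.11 (SE; edgeR adjusted p = 3.87e-14). Zmat3 was at 85.5 against 54.5, 127 against 64.4 and 86.6 against 54.4 CPM (0.63 ± 0.11, edgeR adjusted p = 6.95e-06). Aen was at 113 against 70.9, 36.3 against 12.3 and 62.8 against 41.7 CPM (0.58 ± 0.11, edgeR adjusted p = 1.72e-04).

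The mitochondrial apoptosis genes Bax and Bbc3 moved with Cdkn1a by smaller factors. Bax was at 455 against 295, 390 against 386 and 607 against 464 CPM, with no difference in tumour 2 (0.38 ± 0.09, edgeR adjusted p = 0.0203). Bbc3 was at 82.8 against 55.6, 54.4 against 30.7 and 84.7 against 61.3 CPM (0.46 ± 0.11, edgeR adjusted p = 0.0112). Phlda3 was at 199 against 130, 136 against 101 and 315 against 245 CPM (0.40 ± 0.10, edgeR adjusted p = 0.0270). Dcxr, at the lowest counts of the 7, was at 13.5 against 9.97, 27.2 against 12.3 and 14.5 against 6.66 CPM (0.91 ± 0.21, edgeR adjusted p = 0.00935).

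The feedback inhibitor Mdm2 was not among the 7. It was at 36.9 against 34.0, 63.5 against 46.0 and 44.8 against 38.5 CPM, a log2 fold change of 0.16 whose 95% interval ran from -0.09 to 0.41 (edgeR adjusted p = 1.0). Trp53 was at 125 against 108, 63.5 against 73.6 and 86.8 against 80.4 CPM, a log2 fold change of 0.09 (-0.09 to 0.26, edgeR adjusted p = 1.0). Mdm4 gave 0.15 (-0.09 to 0.40). The interval of Mdm2 lies below the fitted value of Ccng1 but contains those of the called genes Bax and Phlda3, and differences between genes were not tested. Of the 22 genes with a UMI in every sum, 14 were higher in the cells with Cdkn1a in all 3 tumours, against 19.4% of 9090 genes.

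**Figure D3:**
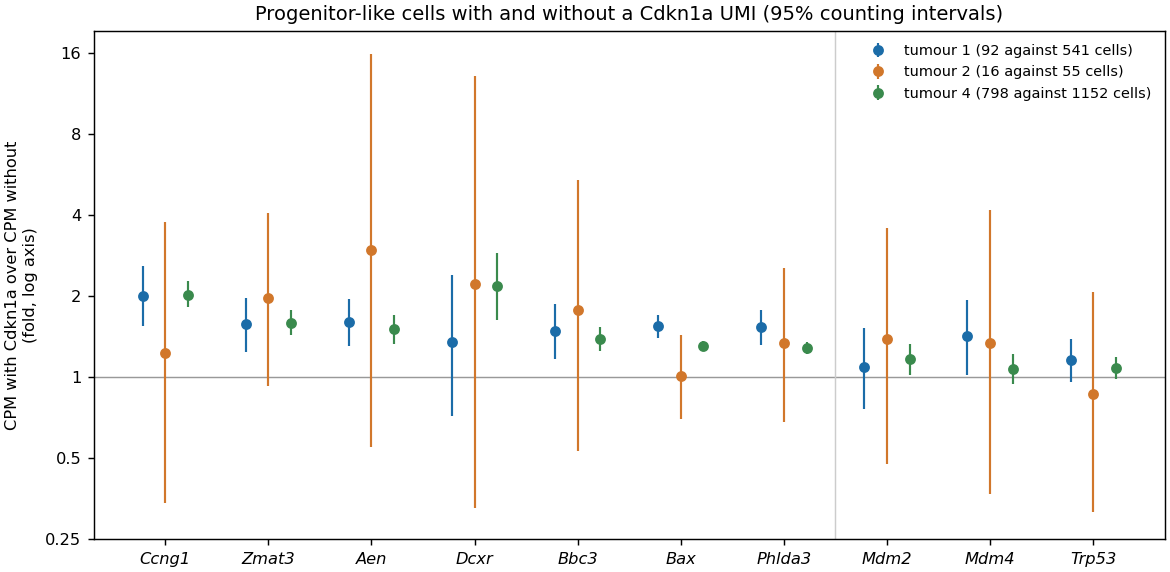
Ratio of CPM between cells with and without a Cdkn1a UMI (log axis) in each tumour, with 95% counting intervals, for the 7 called genes and for Mdm2, Mdm4 and Trp53. Ccng1 lies near 2 in tumours 1 and 4, and the wide intervals of tumour 2 come from 16 against 55 cells.

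The same genes were compared inside single clusters, where 9 clusters had at least 20 cells of each kind. These clusters came from tumours 1 and 4 only, most of them from tumour 4, so they are not replicates. The called genes had been picked by the Cdkn1a split of the same cells, so the values below are a description and no further support. How many of all genes were higher in every cluster was not counted. Ccng1, Zmat3, Bax, Aen and Bbc3 were higher in the cells with Cdkn1a in 9 of 9 clusters, with median folds between 1.27 (Bax) and 1.88 (Ccng1). Phlda3 was higher in 8 of 9 and Dcxr in 7 of 9. Mdm2 was higher in 6 of 9, with its counting interval above 1 in 2, and Trp53 in 7 of 9, with its interval above 1 in none. In tumour 4 the levels could be followed over 1152 cells with no Cdkn1a UMI, 483 with 1, 183 with 2 and 132 with 3 or more. Ccng1 went from 43.7 to 63.6, 77.7 and 192 CPM, Bax from 464 to 548, 562 and 880, and Dcxr from 6.66 to 8.18, 12.3 and 39.6. Mdm2 was at 38.5, 38.5, 53.6 and 54.3 CPM over the same cells, and Trp53 at 80.4, 84.9, 88.6 and 91.3. In tumour 1, with 541 cells at 0, 64 at 1 and 20 at 2 UMIs, not every called gene kept that order. Ccng1 went from 37.7 to 66.4 and 94.0 CPM and Bax from 295 to 384 and 577, while Bbc3 was at 55.6, 90.3 and 38.5, Dcxr at 9.97, 13.8 and 12.8 and Mdm2 at 34.0, 37.6 and 25.6. The last values of Bbc3, Dcxr and Mdm2 rest on 9, 3 and 6 UMIs.

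**Figure D4:**
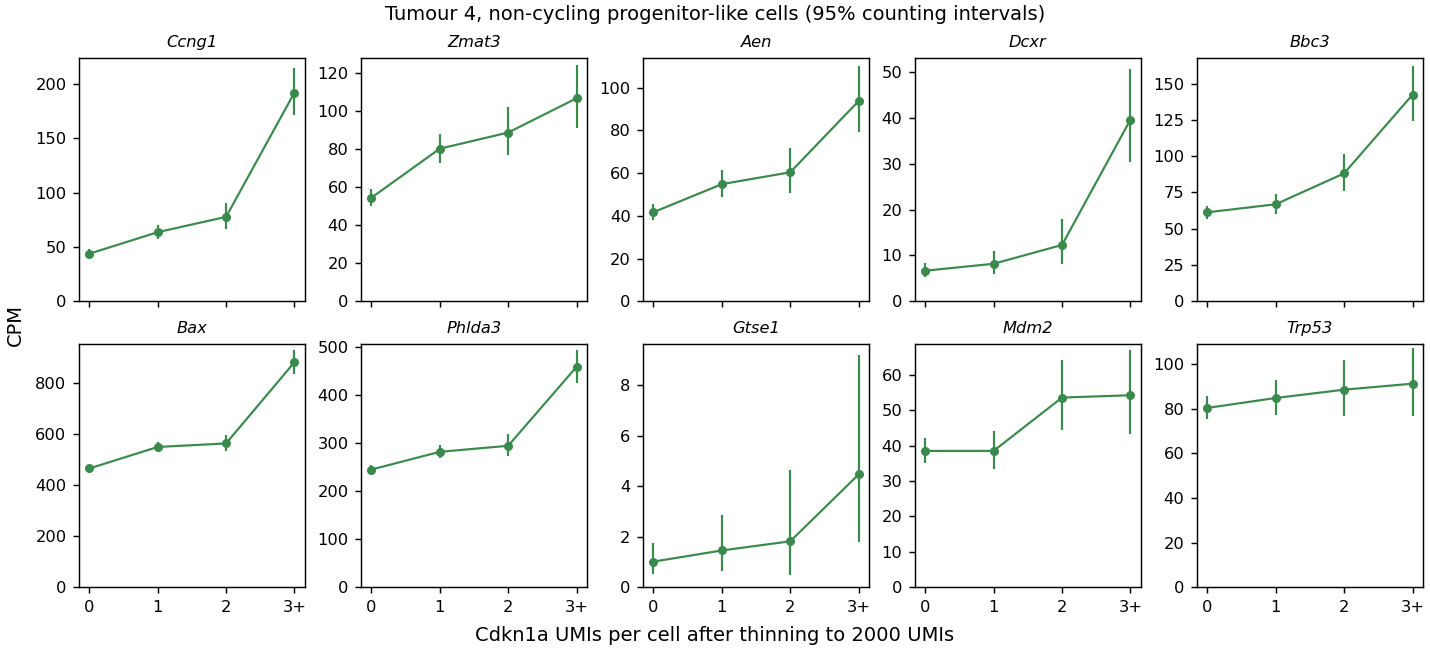
CPM of 10 genes in non-cycling progenitor-like cells of tumour 4 by the number of Cdkn1a UMIs left after thinning to 2000 UMIs (0, 1, 2, 3 or more), with 95% counting intervals and every axis starting at 0. Ccng1 goes from 43.7 to 192 CPM, and Trp53 from 80.4 to 91.3 CPM.

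Cells with Cdkn1a were deeper than those without it. They had a median of 11198, 6153 and 9332 UMIs in tumours 1, 2 and 4, against 10645, 5488 and 8295. Mitochondrial genes took 5.09, 8.09 and 5.72% of UMIs against 5.06, 8.61 and 6.11%. Immediate early genes summed to 3580, 14240 and 5519 CPM against 3248, 12290 and 5401, and integrated stress response genes to 761, 725 and 656 against 719, 512 and 627. Their part in the differences was not tested.

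The calls of this split depend on the fit. In the reported fit edgeR used 1 spread for all genes. When the unnamed neural clusters were added the prior degrees of freedom fell to 5.78 and none of the 28 was called, although Ccng1 had a larger log2 fold change of 1.15. DESeq2 called none of the 28, with Ccng1 at 0.89 ± 0.24 (adjusted p = 0.799), and edgeR called none without tumour 1, without tumour 4 or without the tumour block, and 7 without tumour 2. Over all alternatives the log2 fold change of Ccng1 lay between 0.81 and 1.15, that of Zmat3 between 0.51 and 0.68 and that of Aen between 0.56 and 0.66. None of 21 tested regulators was called, and 2 of 24 tested further targets rose, Psrc1 (0.95 ± 0.11, edgeR adjusted p = 5.18e-15), a spindle-associated gene, and the phosphatase gene Ptp4a3 (0.52 ± 0.11, edgeR adjusted p = 0.00161).

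The 250 bases before the RefSeq start sites of the 32 genes (GRCm38.p6) were searched for the p53 consensus decamer, the unit that is repeated in a p53 response element. The decamer is its own reverse complement, so 1 scan covers both strands. Promoter entries existed for 24 of the 32 genes, and 10 of these (41.7%) held at least 1 decamer, against 8.2% of 27025 genes. Most of the 32 were listed as known p53 targets, so their share is not independent of how the list was made. The full element, a pair of decamers without mismatch and with 0 to 10 bases between them, was found in 0 of the 24 and in 11 of the 27025 genes (0.0407%). With up to 13 bases between them it was found in 1 of the 24, Cdkn1a, and in 18 of the 27025 genes (0.0666%). In a looser search, chosen after these matches were seen, a pair of decamers with no bases between them and at most 1 base off was found in 2 of the 24 (8.33%) and in 25 of the 27025 genes (0.0925%). Those 2 were Cdkn1a, the gene used for the split, and Ccng1, 1 of the 7 called genes. Whether a match goes with a fold change was not tested. Single decamers were found in 3 of the 6 called genes with an entry (Aen, Bax and Ccng1, but not Bbc3, Dcxr or Phlda3) and in 6 of the 16 genes with an entry that were tested and not called (Ei24, Gadd45a, Mdm2, Polk, Sesn1 and Trp53). The paired windows are shown first, followed as examples by the single decamers of Bax and Aen, which rose, and of Mdm2 and Gadd45a, which were not called. Capitals mark bases that match the consensus within the site, and flanks of 10 bases are in lower case.
Cdkn1a (chr17:29090928-29090947, plus strand, 51 to 32 bases before the start): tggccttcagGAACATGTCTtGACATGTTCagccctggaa
Ccng1 (chr11:40755462-40755481, minus strand, 195 to 176 bases before the start): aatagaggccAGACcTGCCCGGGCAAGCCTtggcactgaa
Bax (chr7:45467090-45467099, minus strand): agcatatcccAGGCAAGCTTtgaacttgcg
Aen (chr7:78895937-78895946, plus strand): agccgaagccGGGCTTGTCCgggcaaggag
Mdm2 (chr10:117710935-117710944, minus strand): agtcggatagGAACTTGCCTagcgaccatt
Gadd45a (chr6:67037438-67037447, minus strand): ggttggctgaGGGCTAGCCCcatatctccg
A match is a description of the letters in the window and was not compared with binding. Bases further upstream or inside the genes were not searched, so a gene without a match here may hold an element elsewhere.

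Splitting the same cells by Trp53 itself gave no group of called members. In tumours 1 and 4 its arms differed less in the splitting gene than those of the Cdkn1a split. Trp53 was 2.2, 5.8 and 2.9 times higher in the cells with its UMI in tumours 1, 2 and 4. Cdkn1a was 6.3, 5.4 and 3.2 times higher in its own split. The weaker separation means that this split cannot decide whether the targets follow Trp53 RNA. The cells with a Trp53 UMI numbered 135, 12 and 311 and those without it 498, 59 and 1639. By edgeR none of the 25 other genes tested was called, and DESeq2 called none, while edgeR called 0.00939% of 10644 genes. Of the 25, 1 had an unadjusted p under 0.05 (Aen, log2 fold change 0.23 ± 0.11), against 4.84% of all genes. Cdkn1a was at a log2 fold change of 0.17 (-0.02 to 0.36), Bax at -0.07 (-0.26 to 0.12) and Ccng1 at -0.08 (-0.31 to 0.16). Of the 22 genes with a UMI in every sum, 8 were higher in all 3 tumours, against 21.4% of all genes.

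Splitting by Mdm2 compared 46, 5 and 161 cells with 587, 66 and 1789, and the 5 cells of tumour 2 limit it. None of the 21 other genes tested was called by edgeR or DESeq2, while 0.0% of 8650 genes were called by edgeR. An unadjusted p under 0.05 was found for 4 of the 21, against 3.26% of all genes. Of those 4, Bbc3 (0.43 ± 0.15), Btg2 (0.36 ± 0.13) and Trp53inp1 (0.69 ± 0.34) were fitted higher and Fdxr lower (-1.13 ± 0.45). Of the 16 genes with a UMI in every sum, 2 were higher in all 3 tumours, against 19.2% of all genes. Cdkn1a was at 0.11 (-0.16 to 0.37) and Ccng1 at 0.13 (-0.20 to 0.46) in cells with Mdm2. Neither list of regulators or further targets had a called gene in the Trp53 or the Mdm2 split.

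Correlations between genes over single cells were weak. Among 16 genes of the 32 with a UMI in at least 2% of cells, none of 120 pairs had a Pearson r of at least 0.1 in each of the 3 tumours, against 0.0153% of all gene pairs. In tumours 1 and 4, which hold 633 and 1950 of the cells, 3 of 120 pairs did (2.5%), against 0.0175% of all gene pairs. Each of the 3 contains Cdkn1a: r was 0.181 and 0.149 with Bax, 0.153 and 0.124 with Ccng1, and 0.145 and 0.104 with Aen. In tumour 2, with 71 cells, r of these pairs was -0.0829, -0.0697 and -0.0856. Over all 3 tumours the lowest r of a pair was highest for Bax and Ccng1 (0.0981), then Bax and Ei24 (0.057). Next came Btg2 and Cdkn1a (0.0506), Btg2 and Bbc3 (0.0494), and Ei24 and Cdkn1a (0.0476). The shares of pairs were not compared at equal counts. The cells of a tumour share their library and sequencing depth, and the values are given as a description.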

How the data were processed

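The values are from droplet-based 3′ RNA libraries of sorted cells of 3 tumours. For each tumour the authors deposited raw UMI counts of every gene in every barcode (unit: counts), and a normalised table not used here. The submitters' processing notes name STAR 2.5.1, Cell Ranger 1.3.0 and mm10, and the sources used here do not give the rule by which barcodes were kept. The 32 genes and all lists were chosen with earlier results of these data known. Barcodes under 500 genes or over 20% mitochondrial UMIs were dropped. Cells were clustered per tumour with scanpy 1.11.5 (2000 variable genes without members or cycling genes, 30 components, 15 neighbours, Leiden resolution 1.0). A cluster took the name of the marker list with the highest mean log2(CPM + 1), if it led the next list by 1 and had 3 markers at 20 CPM or more. These limits were set after marker levels were seen, and 1313, 793 and 655 cells of tumours 1, 2 and 4 had no class used here. A cluster also stayed unnamed if another list had more genes than its own list among its 10 leading genes. By this rule alone, clusters of 363, 178, 404 and 221 cells in tumour 1 and of 256 in tumour 4, all led by OPC markers, stayed unnamed. So did 1 of 167 cells in tumour 2, led by oligodendrocyte markers. Clusters of low depth without an own marker among those genes would also have stayed unnamed. Scrublet marked 0, 7 and 0 cells and was taken as not having worked, so doublets were not removed in the reported values. Cycling cells had at least 5 UMIs of 40 cycling genes after thinning to 2000 UMIs, non-cycling cells at most 1, and 428, 5 and 684 cells lay between.

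Counts were summed per tumour and class (at least 20 cells) or per split arm (any number) and tested with edgeR 4.0.16 in R 4.3.3 (TMM, filterByExpr, quasi-likelihood, tumour as block, Benjamini-Hochberg over all genes tested). The tumour block is given because classes and arms come from the same animals. DESeq2 1.42.0 and the other alternatives are in the closing section. The reported edgeR fits were run on simulated counts, and DESeq2 and the other alternatives were not. The simulated spread and fold changes were larger than the spread and the fold changes of the called members in the Cdkn1a split. The simulation therefore does not cover those calls. Every member was accounted for, members past the threshold were named with values, and from the fixed lists the 3 called genes with the largest fold change. A gene named by this rule is not reported here. Other members were named, after their values were seen, where they carry a role in the pathway or changed with a setting. Levels are CPM of the summed UMIs. Positions are from GENCODE M21 (GRCm38) and promoter sequences from RefSeq. The 3 tumours are 1 animal each. In the class fits the spread was shared over the sums of all classes. In the splits by Trp53, Mdm2 and Cdkn1a the prior degrees of freedom were infinite, so 1 spread served all genes. The p-values of the splits therefore do not measure each gene's own spread between animals.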

Additional observations from a re-analysis of the deposited data

How the results depend on the processing

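Counts below are called genes of the 32, the splitting gene left out. Shares of all genes called were computed for some of these fits only and are given above. They moved between fits: in myeloid-like cells 7.17% of all genes were called higher without tumour 1 and 14.6% without tumour 2. A change in a count below is therefore not a result about the members alone. Settings named as added were chosen after seeing the data. Against 5 in myeloid-like cells, DESeq2, no filter on low counts and the unnamed neural clusters each gave 9, at most 10% mitochondrial UMIs 12, and leaving out clusters led by Mdm2 or Gdf15 (added) 9; leaving out 1 tumour gave 2 to 12. Against 0 in cycling cells, fitting only the compared classes gave 9, and no filter, 10% mitochondrial UMIs, unnamed clusters, resolution 0.5, at least 10 cycling UMIs, the led clusters left out (added) and all neural cells (added) gave 1 each; leaving out 1 tumour gave 0 to 2. Against 0 in oligodendrocyte-like cells, DESeq2 gave 2, 10% mitochondrial UMIs 6, resolution 0.5 and the led clusters left out (added) 1 each, and leaving out 1 tumour 0 to 5. Against 7 in the Cdkn1a split, DESeq2 and the unnamed clusters gave 0, the split on unthinned counts 3 and leaving out 1 tumour 0 to 7. The Mdm2 split gave 0 to 1 and the Trp53 split 0 when 1 tumour was left out. Pairs with r of at least 0.1 in every tumour rose from 0 to 1 with unnamed clusters (added) and were 0 to 3 without 1 tumour. The members' summed level stayed between 1696 and 2142 CPM under its alternatives.

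Without the tumour block (no pairing of sums from the same tumour), 2 genes were called in myeloid-like cells and 0 in the Cdkn1a split, and the other tests kept 0. Signs turned for uncalled genes. In the split on unthinned counts Mdm2 and Trp53 were at -0.015 and -0.047 by Cdkn1a, Mdm2 at -0.035 by Trp53 and Btg2 at -0.062 by Mdm2. With unnamed clusters Cdkn1a was at -0.071 by Trp53. Leaving out 1 tumour gave -0.115 to 0.239 for Mdm2 by Trp53 and -0.113 to 0.515 for Bbc3 by Mdm2, the lowest without tumour 4. The causes were not tested. Leaving out the haemoglobin-rich barcode of tumour 1 or the cells with the highest Scrublet scores (both added) left 7 called in the Cdkn1a split. Tumour 2, with 71 progenitor-like cells, sets the widest intervals.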
